A study of Mus musculus with 18 samples.

Results

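The genes described here encode neurotrophins other than BDNF, neurotrophin receptors and co-receptors, and a neuropeptide precursor that neurotrophins induce: Ntf3, Ntf5, Ntrk2, Ntrk3, Ngfr, Sort1, Sorcs2 and Vgf. They are 8 of 21631 protein-coding genes and were named by a rule that uses no measured value, though with earlier results of these data known. The question is where peaks of the ATF4 antibody lay around them in untreated neurons and in neurons given 2-deoxyglucose (2-DG), a glucose analogue that blocks glycolysis. Immature neurons from embryonic day 14 mice, 2 days in culture, were left untreated or given 10 mM 2-DG for 6 h before chromatin immunoprecipitation and sequencing. The deposited data are lists of peaks, each called on 1 sample, and 4 control lists and 4 2-DG lists have labels that agree on the treatment. They are numbered here by order of deposition. The files give no read counts, so depth is unknown. The labels name no strain, sex or culture, and the design text speaks of 3 independent replicates, so the spread between lists may be technical. The antibody label of the control immunoprecipitations reads none, whereas the design text names the ATF4 antibody for both treatments. A difference between the treatments and a difference in antibody therefore cannot be told apart. Peaks do not measure expression, so the neuronal identity of the cells was not checked.

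Neurotrophins are secreted growth factors that keep neurons alive and shape their synapses. Mature neurotrophins act through the Trk receptor tyrosine kinases. Their uncleaved precursors act through the p75 receptor together with sortilin-family proteins, which can drive cell death and growth cone retraction. ATF4 is a basic leucine zipper transcription factor whose synthesis rises when the integrated stress response slows general translation. It binds, with C/EBP partners, to composite sites in genes of amino acid metabolism and stress.

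Peaks at the 8 loci tended to low folds for their lists, in control lists more than in 2-DG lists. Of the regions that they merge into, 81.2% were in 1 list, against 73.6% of all regions. In a window of the gene body and 50 kb on either side, 60 peaks were called over the 8 lists, 25 in control lists and 35 in 2-DG lists. All 8 genes had a window peak in at least 1 list, as did 75.6% of protein-coding genes. The median window over all genes was 117 kb, and most members had a longer one. No member had a window peak in each of the 4 2-DG lists without one in a control list, a pattern seen for 1.99% of protein-coding genes. None did so with at least 3 2-DG lists (4.39% of genes), and none with at least 3 control lists and no 2-DG list (0.402%). None had more window peaks in every 2-DG list than in every control list, a pattern of 2.36% of genes, or fewer, which 0.0185% showed. None had a peak summit within 2000 bp of either gene end, where 10.7% of genes had one in at least 1 list and 1.77% in at least 3 2-DG lists. With 8 genes, shares this small leave few members or none, so these zeros do not set the members apart. The strongest site in any window was an exception in its fold. It lay 17026 bp beyond Ntf5, inside Ruvbl2 and beside the start of Gys1, and was called in 3 of 4 2-DG lists and no control list.

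That site and the member promoters on record are shown first, since they set starts with a listed peak beside starts without one. Promoter sequences, 250 bp before to 50 bp after a listed gene start, came from RefSeq (GRCm38.p6, the assembly that mm10 names). The table matched 3 of the 8 members, Ntrk2, Ngfr and Ntf3. Capitals mark TGATGNAA, the core of the composite site that ATF4 shares with C/EBP proteins, or TGACGT, a part of the cyclic AMP response element, on either strand. The Ruvbl2 promoter (chr7:45434415-45434714, minus strand) lay inside the Ntf5-window site. The promoters of Ntrk2 (chr13:58806319-58806618, plus strand), Ngfr (chr11:95587649-95587948, minus strand) and Ntf3 (chr6:126166695-126166994, minus strand) overlapped no peak in any of the 8 lists. The promoter of Chac1 (chr2:119350992-119351291, plus strand), a glutathione-degrading enzyme gene and known ATF4 target, overlapped a peak in every 2-DG list and in control list 1, and is given for comparison.
Ruvbl2: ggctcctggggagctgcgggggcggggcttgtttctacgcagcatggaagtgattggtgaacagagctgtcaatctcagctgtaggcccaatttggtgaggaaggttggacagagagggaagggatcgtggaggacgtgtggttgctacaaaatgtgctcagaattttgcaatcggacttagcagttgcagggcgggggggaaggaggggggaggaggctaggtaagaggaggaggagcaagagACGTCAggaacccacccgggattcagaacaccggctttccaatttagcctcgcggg
Ntrk2: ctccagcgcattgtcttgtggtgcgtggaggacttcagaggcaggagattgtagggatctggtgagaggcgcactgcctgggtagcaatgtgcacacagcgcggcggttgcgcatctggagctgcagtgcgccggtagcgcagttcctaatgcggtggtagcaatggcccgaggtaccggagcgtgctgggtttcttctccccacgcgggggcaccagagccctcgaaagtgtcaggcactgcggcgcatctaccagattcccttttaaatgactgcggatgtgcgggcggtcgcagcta
Ngfr: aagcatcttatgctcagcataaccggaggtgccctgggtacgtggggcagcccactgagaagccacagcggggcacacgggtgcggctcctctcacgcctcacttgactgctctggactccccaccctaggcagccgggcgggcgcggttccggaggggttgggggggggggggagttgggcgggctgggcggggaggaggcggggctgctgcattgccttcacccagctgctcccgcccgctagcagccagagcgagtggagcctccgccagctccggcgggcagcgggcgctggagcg
Ntf3: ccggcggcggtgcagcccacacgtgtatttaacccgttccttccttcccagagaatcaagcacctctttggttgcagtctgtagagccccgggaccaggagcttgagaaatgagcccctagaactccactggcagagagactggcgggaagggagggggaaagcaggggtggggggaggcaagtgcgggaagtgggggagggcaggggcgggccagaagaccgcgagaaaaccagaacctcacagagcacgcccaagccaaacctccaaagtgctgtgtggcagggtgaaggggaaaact
Chac1: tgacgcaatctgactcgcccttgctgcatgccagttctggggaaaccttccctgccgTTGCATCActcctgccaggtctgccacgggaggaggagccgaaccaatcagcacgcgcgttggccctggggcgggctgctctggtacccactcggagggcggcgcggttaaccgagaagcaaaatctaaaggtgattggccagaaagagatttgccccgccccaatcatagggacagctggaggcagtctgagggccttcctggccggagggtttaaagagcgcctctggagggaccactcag
The letters TGATGNAA stood once in the Chac1 promoter, as TTGCATCA on the printed strand, and in none of the other sequences printed. The Chac1 summits of the 2-DG lists lay 31, 20, 7 and 15 bp from it. Other known ATF4 targets, Trib3 and Atf3, held TGATGNAA too, in promoters not printed. At Trib3 it stood at chr2:152344039-152344046, with gene-start summits of the 2-DG lists from 152344070 to 152344100. At Atf3, which also held TGACGT, it stood at chr1:191183436-191183443, with such summits from 191183287 to 191183314. The motif was thus farther from the summits at Atf3 than at Chac1. TGACGT stood once in the Ruvbl2 promoter, as ACGTCA on the printed strand. It lay 139, 134 and 151 bp from the summits of 2-DG lists 1, 2 and 4. A second listed Ntf3 promoter (chr6:126164911-126165210) held neither motif and overlapped no peak. Of all 32851 promoters in the table, 3.97% held TGATGNAA and 7.51% held TGACGT on either strand. The full element TGACGTCA, which contains TGACGT, stood in 1.79%. A match is a description of the letters and not of binding.

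**Figure D1:**
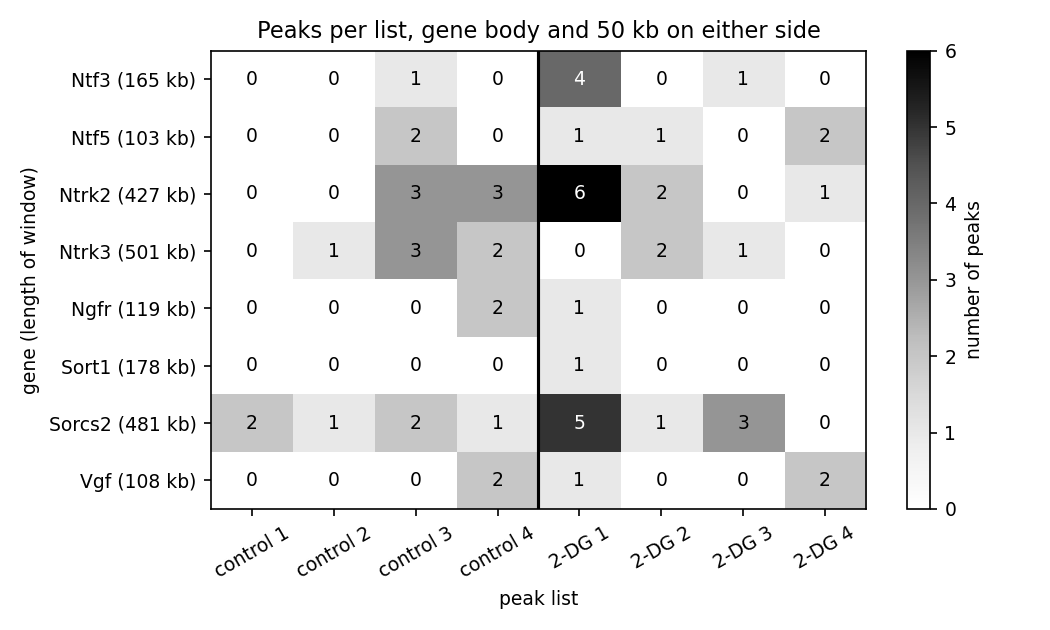
Number of peaks with a summit in each gene's window (rows, with the window length) in each of 4 control and 4 2-DG lists (columns). Darker cells hold more peaks. No row separates the treatments, and 2-DG list 1 holds 19 of the 60 peaks.

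The ligand gene Ntf5 encodes neurotrophin-4, which activates TrkB. It lies on chromosome 7 at 45413695 to 45417179 (mm10). Its window held 0, 0, 2 and 0 peaks in control lists 1 to 4 and 1, 1, 0 and 2 peaks in 2-DG lists 1 to 4. The treatments overlapped. The mean was 0.5 ± 1 (SD, n = 4) peaks for control lists and 1 ± 0.816 (SD, n = 4) for 2-DG lists (two-sided exact permutation p = 0.657, adjusted p = 1 over all genes). No peak lay inside the gene.

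The recurrent site in the Ntf5 window spanned 594 bp, chr7:45434205-45434798, at Ruvbl2, which encodes a AAA ATPase of chromatin remodelling complexes. Gys1, the muscle glycogen synthase gene, starts 230 bp from its summit in 2-DG list 1, on the opposite strand. In 2-DG list 1 the authors' fold over local background was 13.9, rank 702 of 15240 peaks, the top 4.61% of the list. In 2-DG list 2 it was 12.8, rank 509 of 7369, the top 6.91%. In 2-DG list 4 it was 8.30, rank 703 of 5856, the top 12.0%. The summits lay within 17 bp of each other and 145, 140 and 157 bp from a start of Ruvbl2 that the promoter table lists inside the gene's full span, against 17430, 17425 and 17442 bp from the nearer end of Ntf5. 2-DG list 3 and the control lists had no peak there. The site lies in the body of Ruvbl2, the nearest gene end is that of Gys1, and neither is Ntf5. It was the single region of 48 in the members' windows that was in at least 3 2-DG lists and no control list, against 3.99% of all 35717 regions. By gene, 1 of 8 windows held such a region, against 9.21% of protein-coding genes. Fisher's exact test over lists gave p = 0.143 for this region and an adjusted p of 1 over all regions, as for every region. The other window peaks of 2-DG list 4 and control list 3 had folds of 3.65 and 4.68.

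The ligand gene Ntf3 encodes neurotrophin-3, the main ligand of TrkC. Its position is chromosome 6, 126101412 to 126166772. The window held 0, 0, 1 and 0 peaks in control lists 1 to 4 and 4, 0, 1 and 0 in 2-DG lists 1 to 4. The higher 2-DG mean rested on 2-DG list 1, and lists of both treatments had no peak. The mean was 0.25 ± 0.5 (SD, n = 4) for control lists and 1.25 ± 1.89 (SD, n = 4) for 2-DG lists (exact permutation p = 0.714, adjusted p = 1). None of the 6 regions was shared by a pair of lists. Folds ran from 3.40 to 4.64 in the 2-DG lists, and the peak nearest a listed start was 2611 bp away, in 2-DG list 3, with a fold of 3.91 that was the lowest in that list.

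Vgf encodes a secreted precursor of neuropeptides and is induced by neurotrophins and neuronal activity. The gene spans chromosome 5 from 137025301 to 137033351. Its window held 0, 0, 0 and 2 peaks in control lists 1 to 4 and 1, 0, 0 and 2 in 2-DG lists 1 to 4. Control list 4 and 2-DG list 4 held the same number, and the treatments overlapped (exact permutation p = 1, adjusted p = 1). All 5 peaks sat between 5237 and 8708 bp outside the lower-coordinate end of the gene, with no annotated gene at any of them. One region there, chr5:137019806-137020171, was shared by 3 lists: 2-DG list 1 with a fold of 5.26, 2-DG list 4 with 3.98 and control list 4 with 3.89. The highest of the Vgf peaks, with a fold of 6.64 in the top 19.1% of 2-DG list 4, was 104 bp wide. It lay beside a peak of control list 4 with a fold of 4.95 and did not overlap it.

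Among the Trk receptors, Ntrk2 encodes TrkB, the receptor of BDNF and neurotrophin-4. The gene spans chromosome 13 from 58806472 to 59133970. Its window of 427 kb held 0, 0, 3 and 3 peaks in control lists 1 to 4 and 6, 2, 0 and 1 in 2-DG lists 1 to 4. Only 2-DG list 1 was above every control list. The mean was 1.5 ± 1.73 (SD, n = 4) for control lists and 2.25 ± 2.63 (SD, n = 4) for 2-DG lists (exact permutation p = 0.8286, adjusted p = 1). Without 2-DG list 1 the difference of 0.75 turned to -0.5 (exact permutation p = 0.8286). Inside the gene lay 11 of the 15 peaks. One region in the gene, chr13:58966790-58966930, was called in control lists 3 and 4, with folds of 3.74 and 3.89, and in 2-DG list 1, with 4.95. A second, chr13:58950438-58950720, was in 2-DG lists 1 and 4 with folds of 4.02 and 3.65. The other 10 regions were each in 1 list. No peak was nearer than 32184 bp to the listed start of the gene.

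Ntrk3 encodes TrkC, the receptor of neurotrophin-3. It lies on chromosome 7 at 78179986 to 78581034 and has the longest window, 501 kb. The window held 0, 1, 3 and 2 peaks in control lists 1 to 4 and 0, 2, 1 and 0 in 2-DG lists 1 to 4. Here the mean was lower after 2-DG, 0.75 ± 0.957 against 1.5 ± 1.29 (SD, n = 4 each), within the spread of the lists (exact permutation p = 0.571, adjusted p = 1). Of its regions, 3 were in a pair of lists. One in the gene was called in control list 3 with a fold of 4.68 and in 2-DG list 3 with 5.38. One in E430016F16Rik, a long non-coding RNA gene beside Ntrk3, was in control list 3 and 2-DG list 2, and another there in control lists 2 and 4. The peak nearest an end of Ntrk3 was 40668 bp from it.

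The p75 receptor gene Ngfr, a death-domain receptor for neurotrophins and their precursors, lies on chromosome 11 at 95568818 to 95587698. Its window held 2 peaks in control list 4, 1 peak in 2-DG list 1 and 0 in the other lists (exact permutation p = 1, adjusted p = 1). The peak with the highest fold was a control peak inside the gene, at 6.01 in the top 11.7% of control list 4, 13977 bp from the gene start. The 2-DG peak had a fold of 3.71 and lay 31247 bp outside the gene.

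Of the sortilin-family co-receptors, Sort1 encodes sortilin, which sorts proneurotrophins and binds them at the cell surface with p75. Its position is chromosome 3, 108283974 to 108361519. Its window held 1 peak in 2-DG list 1 and 0 in each of the other lists (exact permutation p = 1, adjusted p = 1). That peak, with a fold of 4.33, was 38411 bp inside the gene.

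Sorcs2 encodes a second Vps10p-domain receptor that binds proneurotrophins with p75. It lies on chromosome 5 at 36017180 to 36398197. Its window of 481 kb held 2, 1, 2 and 1 peaks in control lists 1 to 4 and 5, 1, 3 and 0 in 2-DG lists 1 to 4. It was the only member with a window peak in every control list. The mean was 1.5 ± 0.577 (SD, n = 4) for control lists and 2.25 ± 2.22 (SD, n = 4) for 2-DG lists, and the lowest and highest values were both 2-DG lists (exact permutation p = 0.714, adjusted p = 1). A region inside the gene, chr5:36257030-36257323, was in 2-DG lists 1 and 2 with folds of 5.26 and 4.62. A region in the neighbouring gene Afap1, an actin filament-associated protein gene, was in 2-DG lists 1 and 3 with 5.57 and 3.91. The highest fold in the window, 9.59 in the top 8.65% of 2-DG list 1, was in Afap1 too, 31600 bp from its end, and was called in that list alone.

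**Figure D2:**
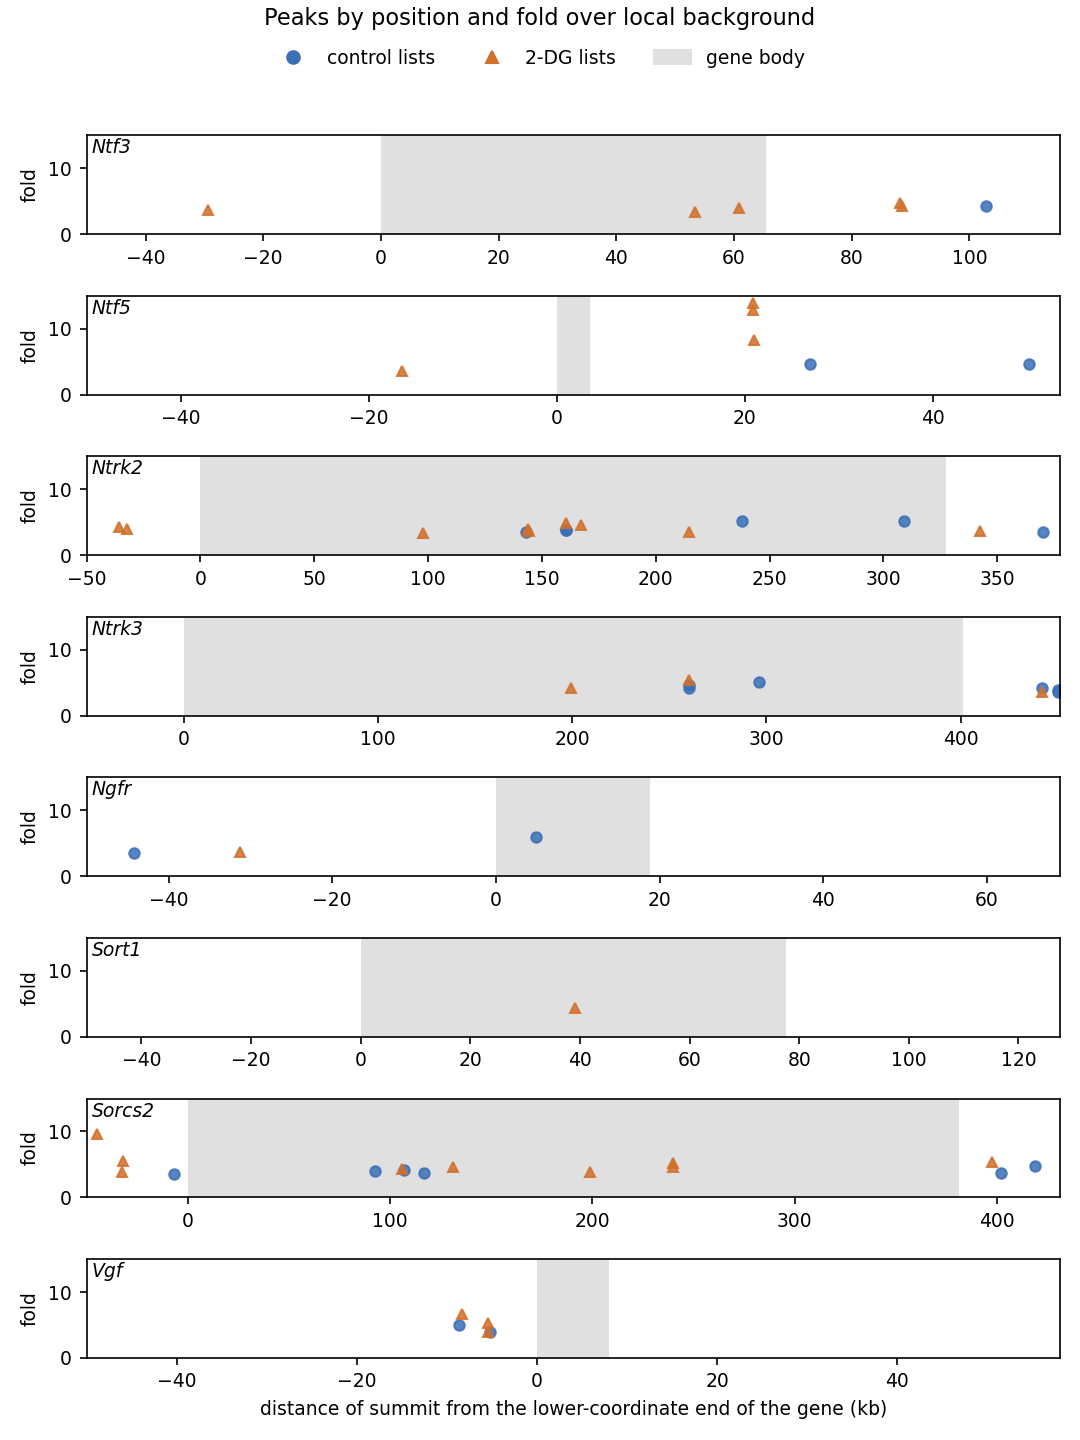
Each panel shows 1 gene: distance of the peak summit from the lower-coordinate end of the gene in kb (horizontal) and the authors' fold over local background (vertical). Circles are control lists, triangles 2-DG lists and grey the gene body. The 3 triangles between 8.30 and 13.9 in the Ntf5 panel are the Ruvbl2 site, the other 2-DG peaks have folds of 3.40 to 9.59, and the control peaks 3.54 to 6.01.

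Ordered by peaks over the 8 lists, Ntrk2 and Sorcs2 had 15 each, Ntrk3 had 9, Ntf3 and Ntf5 had 6 each, Vgf had 5, Ngfr had 3 and Sort1 had 1. The counts per list of neighbours in this order overlapped. The order followed window length in part. The windows of Ntrk2, Ntrk3 and Sorcs2 made up 67.7% of the total of 2.08 Mb and held 65.0% of the peaks. At the average density of all protein-coding gene windows, 10.7 peaks would lie in the Ntrk2 window, 12.1 in that of Sorcs2, 12.6 in that of Ntrk3 and 4.46 in that of Sort1. Ntrk3 and Sort1 were below these values, and Ntrk2 and Sorcs2 above. Ntf3, Ntf5 and Vgf were above theirs too, with 6, 6 and 5 peaks against 4.16, 2.60 and 2.72. Ngfr was near its value, with 3 against 2.99.

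Over the 8 windows together, control lists 1 to 4 held 2, 2, 11 and 10 peaks and 2-DG lists 1 to 4 held 19, 6, 5 and 5. 2-DG lists 2 to 4 lay between the low and the high pair of control lists. The mean was 6.25 ± 4.92 (SD, n = 4) for control lists and 8.75 ± 6.85 (SD, n = 4) for 2-DG lists. No test was made on this sum, because the genes were chosen with earlier results known. Without 2-DG list 1 the difference of 2.5 turned to -0.917. That list was the longest, with 15240 peaks against 3461 to 8202 in the others, and with equal numbers of top peaks in every list (3461) the difference was 0. Per Mb of window, the 8 loci carried 0.960 to 9.12 peaks over the lists, against 1.55 to 6.59 in all gene windows. The ratio of the first to the second was 0.562 to 1.57 in control lists and 0.870 to 1.38 in 2-DG lists. In all, 60 peaks were seen where the average density would give 52.3.

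**Figure D3:**
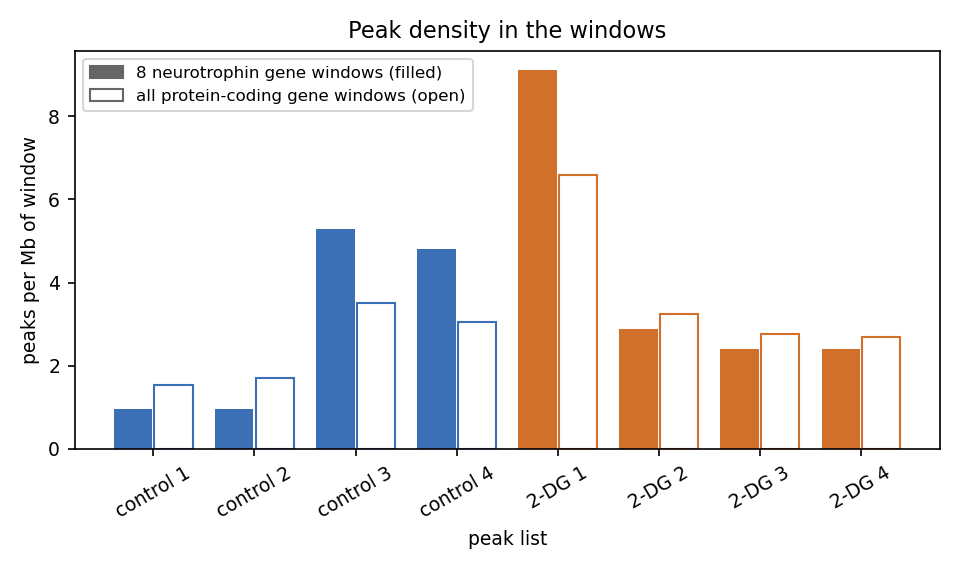
Peaks per Mb of window in each list, for the 8 neurotrophin gene windows (filled bars) and the windows of all protein-coding genes (open bars), control in blue and 2-DG in orange. The filled bars are above the open ones in control lists 3 and 4 and 2-DG list 1, and below them in the other 5 lists.

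By gene, the mean number of window peaks was higher after 2-DG for 6 members and lower for 2, Ntrk3 and Ngfr. Over all genes it was higher for 43.4%, lower for 20.9% and equal for 35.7%. The median difference was 0.375 peaks for the members and 0 for all genes. No member passed the two-sided exact permutation test with Benjamini-Hochberg adjustment over all genes, and 0% of all genes did. At an unadjusted exact permutation p under 0.05, 0 members, 511 higher genes (2.36%) and 4 lower genes were found. The smallest p that 4 lists against 4 allow is 0.0286, and too few genes reached it for any to pass after adjustment.

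The peaks merged into 48 regions, of which 39 (81.2%) were in 1 list, against 73.6% of all regions. Of these 39, 13 came from 2-DG list 1, the longest list. No member region was in more than 3 lists. Of the 9 regions in more than 1 list, 4 were in 2-DG lists alone, 1 in control lists alone and 4 in both treatments. Of all 9436 regions in more than 1 list, the shares were 40.3%, 6.25% and 53.5%. Every 2-DG list but no control list was the pattern of 0 member regions and of 1.72% of all regions. None was in at least 3 control lists and no 2-DG list, against 0.115%. At an unadjusted Fisher's exact p under 0.05, 0 member regions and 617 of all regions were found.

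The members' peaks lay low in their lists, in control lists more than in 2-DG lists. Among the 60, the median rank was the top 56.8% of the list. It was the top 56.8% for the control peaks and 48.5% for the 2-DG peaks. The top 50% held 48.3% of the 60, against 59.6% of all peaks, and the top 10% held 5%, against 10.7%. By treatment, the top 50% held 40% of the control peaks, against 59.3% of all peaks of those lists. For the 2-DG lists the shares were 54.3% and 59.7%. Tied folds share the better rank, so the shares of all peaks are above 50% and 10%. Of the 60, 28.3% had the lowest fold that their list holds. Over all peaks of the 8 lists 18.5% had that lowest fold. A -log10 q of at least 5 was reached by 10 of the 60 (16.7%), against 30.2% of all peaks. The 3 peaks in the top 10% were the Ruvbl2 site in 2-DG lists 1 and 2 and the Afap1 peak in 2-DG list 1. No control peak reached the top 10%. The median width was 136.5 bp, against 152 bp for all peaks.

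Bdnf, the neurotrophin gene of the study's title, and 3 known ATF4 targets are given for comparison, chosen as known genes and not as typical recurrent sites. Recurrent sites can also have low folds. The region in the Grb2 window, in 4 2-DG lists and 4 control lists, had folds of 4.27 to 7.11 and 3.66 to 7.95. The region in the Sh2b2 window, in 3 2-DG lists, had folds of 3.98 to 5.57. The Bdnf region, chr2:109677958-109678536, had folds of 29.4, 19.9, 7.34 and 9.29 in 2-DG lists 1 to 4, the top 1.35% to 10.0% of each list. In control list 1 its fold was 4.00, the top 58.1%, and the other control lists had no peak there. At Chac1, the promoter site had folds of 142, 128, 69.0 and 66.7 in 2-DG lists 1 to 4 and 13.8 in control list 1. At Trib3, a pseudokinase gene, and at Atf3, a stress-response transcription factor gene, peaks at the gene start were in every 2-DG list but no control list, with folds of 21.5 to 58.8 and 8.63 to 22.6. Each list has its own depth and length, so folds were not compared by test across lists.

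**Figure D4:**
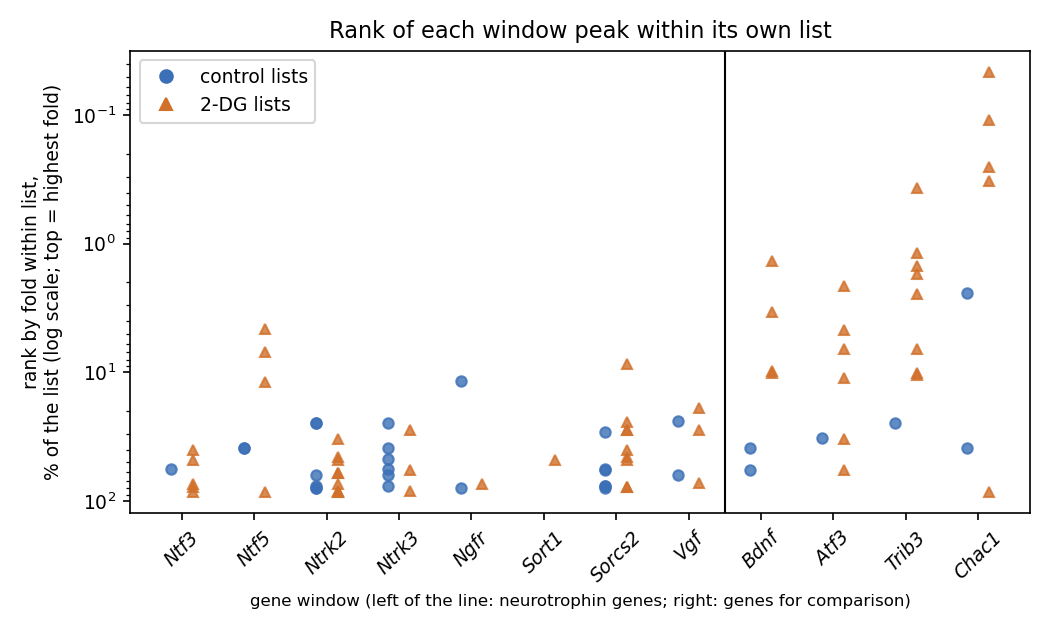
Rank of each window peak by fold within its own list, as a percent of the list on a log axis with the highest folds at the top. Circles are control lists and triangles 2-DG lists. To the left of the line, 3 of 60 peaks are in the top 10%, and to the right the gene-start or gene-body sites of Bdnf, Atf3, Trib3 and Chac1 held 2-DG peaks in the top 0.0459% to 11.1%. Other 2-DG peaks to the right ranked as low as the top 86.2% (Chac1) and 57.3% (Atf3). Control peaks there lay in the top 2.43% to 58.1%.

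For 3 members with at least 8 window peaks, the genes with the most similar numbers of peaks over the 8 lists were found by the sum of absolute differences. Sorcs2 was nearest to Cadps, a vesicle priming gene, with 1, 1, 2 and 1 control peaks and 5, 2, 3 and 1 2-DG peaks (sum 3), and then to Tnr (sum 4). Ntrk2 was nearest to Spata13 and Adamtsl3 (sum 4), and Ntrk3 to Gm11639 and Pom121 (sum 2). Ties were many, with 11 genes at the Ntrk2 value and 5 at the Ntrk3 value, and were ordered by nearness of window length.

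The rest of the pathway was read from 4 lists of 60 genes in all. Of these, 47 had a window peak in at least 1 list, against 75.6% of protein-coding genes. In 7 the window held a region in at least 3 2-DG lists and no control list, against 9.21% of protein-coding genes, and in 1 the reverse, against 0.273%. Among 6 other ligands and receptors, Sorcs1, a further sortilin-related receptor, had a pair of such regions in its gene body, with folds up to 15.5 after 2-DG. Sorl1 had a region 13840 bp outside the gene in 4 2-DG lists and 1 control list. Among 15 genes of ligand processing, Furin, the protease that cleaves proneurotrophins, had the reverse pattern. That region lay in its neighbour Fes, in 3 control lists and no 2-DG list, with folds of 3.89 to 5.09. Among 11 p75 adaptors and sheddases, the window of Adam17, which sheds p75, held a region in Iah1 in 4 2-DG lists and no control list, with folds of 4.40 to 22.1.

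Of 28 Trk signalling genes, 5 held a region in at least 3 2-DG lists and no control list, against 9.21% of protein-coding genes. Rps6ka2, a ribosomal S6 kinase gene, had it inside the gene, with folds of 6.64 to 16.4 in 4 2-DG lists. For Irs1, Sh2b1 and Sh2b2, adaptors of receptor tyrosine kinases, it lay 25161, 25002 and 15672 bp away, in Rhbdd1, Atxn2l and Cux1. Creb1 and Grb2 had regions in all 4 2-DG lists, with 2 and 4 control lists too. The Crk window held a region in Inpp5k in 2 2-DG lists and 3 control lists. Window counts in every 2-DG list exceeded those in every control list for 3 of the 60, Adam17 and Irs1 among them, against 2.36% of genes. Both of these had an exact permutation p of 0.0286 and an adjusted p of 1. Near a gene end, within 2000 bp, 0 of the 60 had a peak in at least 3 2-DG lists, against 1.77% of genes.

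Among markers of 4 other cell types (astrocytes, oligodendrocyte lineage, microglia and vessels), 0 of 14 windows held a region in at least 3 2-DG lists and no control list. Of 6 neuronal markers, 1 did, Tubb3, the neuronal tubulin gene. The share over all protein-coding genes was 9.21%, and with so few markers no difference between the lists of markers can be read from these counts.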

How the data were processed

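The submitters' processing notes name BWA, Picard, MACS2 and DiffBind, without versions or roles, and the build mm10. Of 18 samples, 10 had a deposited peak list, and the other 8 were not analysed here. In 4 samples, 2 of them with lists, title and description name different treatments, and these lists entered only alternatives. The deposited columns hold a ratio of pileup to local background (the fold), p and q as -log10 values, and a whole-number score that is 10 times -log10 q, rounded down. They are the authors' values for single peaks, used only to describe, rank or filter within a list. Files give no counts, so depth is unknown, and absence of a peak says no more than that the caller listed none. The labels' extraction protocol is one for RNA, and the chromatin steps are not given in the sources used here.

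Repeated summits of 1 interval were joined at the highest summit. A peak belonged to a gene when its summit lay in the gene or within 50 kb (GRCm38.p6 RefSeq table, without strand or exons, so exons and introns were not separated). All members matched. Regions are the union of the 8 lists with an overlap of at least 1 bp. Per gene, mean peaks per list were compared by a two-sided exact permutation test over 70 assignments, with Benjamini-Hochberg adjustment over 21631 genes. Per region, Fisher's exact test over lists was adjusted over 35717 regions. Alternatives were filters on q and fold, equal list lengths, window widths, counting rules, leaving out each list, adding the conflicting lists, and pairs of consecutive title numbers. Named genes were the members, Bdnf, Chac1, Trib3, Atf3, pathway genes with a region in at least 3 lists of a treatment (12 at most), the genes nearest recurrent member regions and the most similar genes. The members, lists and tests were chosen with earlier results of these data known, and the motifs after the peaks were seen. The code, written in Python 3.11.15 with numpy 2.4.6, pandas 2.3.3 and scipy 1.17.1, was tested on simulated data. The values of 1 pathway gene are not reported here.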

Additional observations from a re-analysis of the deposited data

Results flagged for a closer look

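Of 18 groups of 4 lists (16 of single genes and the 2 sums), 7 held 1 list far from the other 3 by Dixon's limit, where chance flags about 1 in 20 groups. Counts of 0 with a single list above 0 always pass that limit, so the 7 are no more than a description. In the sum over all windows, 2-DG list 1 stood apart with 19 peaks. It also stood alone among 2-DG lists for Ngfr, with 1 peak, and for Sort1, with 1 peak. Control list 3 stood alone for Ntf3, with 1 peak, and for Ntf5, with 2 peaks. Control list 4 stood alone for Ngfr and for Vgf, with 2 peaks each.

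The Ntf5-window site at Ruvbl2 also appeared in a list that entered no group, whose title says 2-DG and whose description says control. Its fold there was 4.51, the top 33.7% of that list, while no control list had a peak at the site.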

How the results depend on the processing

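No alternative brought a member past an unadjusted exact permutation p under 0.05, and the lowest p over 160 alternative values was 0.143. The number of all genes passing after adjustment stayed 0 in all 20 alternatives. The direction turned in 7 of the 160, and the difference was exactly 0 in 18, among them Ntf3, Ntrk3, Sort1, Sorcs2 and Vgf with equal numbers of top peaks. For Ntrk2 the difference of 0.75 peaks became -0.5 with a fold of at least 5, with equal numbers of top peaks (3461 per list) and without 2-DG list 1. For Ngfr, -0.25 became 0.5 with 100 kb on either side and 0.25 without control list 4. Without 2-DG list 1 Sorcs2 became -0.167, and without 2-DG list 4 Vgf became -0.167. Over left-out lists these differences ran from -0.5 to 1.5 (Ntrk2), -0.167 to 1.5 (Sorcs2), -0.5 to 0.25 (Ngfr), -0.167 to 0.75 (Vgf), 0.0833 to 1.42 (Ntf3), 0.167 to 1 (Ntf5), -1.25 to -0.25 (Ntrk3) and 0 to 0.333 (Sort1). The summed difference of 2.5 ran from -0.917 (without 2-DG list 1) to 4.08 over left-out lists, was 0 with equal numbers of top peaks and 7.25 with 100 kb on either side, and was 1 to 3.75 under the other alternatives. The number of member regions in every 2-DG list but no control list rose from 0 to 1 with 100 kb on either side, and ran from 0 to 1 over left-out lists, with the Ruvbl2 site counted without 2-DG list 3. The median rank, whose alternatives were chosen after seeing the data, ran from the top 42.4% to the top 63.8%, with ranks taken again after each filter. With consecutive title numbers as a replicate block, where the smallest p is 0.125, the lowest member p was 0.5 and 0 genes passed. Deviations of such pairs correlated at 0.0381, 0.355, 0.376 and 0.655 over genes. The highest of the 12 other pairings was 0.295, below 3 of these 4, and the remaining pair is not over 0.1. Deviations were taken from the mean of each treatment, so a high value for a pair pulls the other pairings down. The comparison is partly fixed for that reason. The main permutation test did not use these pairs. Without read counts, no limit of detection can be set for a missing peak.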

Other observations

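Beyond the 50 kb flanks, a site with a higher fold lay near Ntrk2. It was found with the alternative of 100 kb on either side and is described after its values were seen. It spanned chr13:58736717-58737377, 69095 bp from Ntrk2, which is the nearest protein-coding gene, and 3697 bp from 4930455J16Rik, a long non-coding RNA gene. Every 2-DG list but no control list held it, as for 1.72% of all regions. The fold was 17.3, 13.5, 5.87 and 6.64 in 2-DG lists 1 to 4, the top 3.27%, 6.34%, 20.7% and 19.1% of each list. Fisher's exact test over lists gave p = 0.0286, the smallest of any region. Adjusted over all regions, p was 1, as for every region, so the adjusted value cannot tell this site from others.

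A second region, chr11:95646060-95646375, lay 58362 bp from Ngfr and 20582 bp from Phb, the nearest gene, which encodes prohibitin. It was in 2-DG lists 1, 2 and 4, with folds of 8.97, 11.7 and 8.30, and in no control list. At least 3 2-DG lists without a control list was the pattern of 3.99% of all regions.

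Both sites were also in the list whose title says 2-DG and whose description says control, with folds of 7.64 near Ntrk2 and 4.86 near Ngfr. The sites compared above at Chac1, Trib3, Bdnf and Atf3 were in it too, with folds of 45.1, 13.2, 9.38 and 6.95. Control list 1 also held those of Chac1 and Bdnf. The list with the opposite conflict had no peak in the windows of these genes. Which label is right was not tested. The list with the 2-DG title held 5 peaks in the 8 member windows, and the list with the opposite conflict held 4. The 5 were 2 at Ntf5 and 1 each at Ngfr, Sorcs2 and Vgf, and the 4 were 1 each at Ntf3, Ntrk3, Sorcs2 and Vgf.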
